A study of Mus musculus with 3 samples.

Results

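The ErbB receptors and their ligands comprised 10 genes: the receptors Egfr, Erbb2, Erbb3 and Erbb4, and the ligands Areg, Ereg, Hbegf, Tgfa, Btc and Egf. Every probe that the array files name for one of these genes and do not mark as a control was taken, which gave 25 probes of 41174, 16 for the receptors and 9 for the ligands. They were read on 3 Agilent arrays covering the whole mouse genome, hybridised with RNA of EpH4-PR cells. These are mouse EpH4 cells, an epithelial line from the mammary gland, that carry a stable transfection of the A form of the progesterone receptor (PR-A) and were obtained by selecting clones. The cells were cultured in DMEM with 10% FBS to about 75% confluence and received no hormone or growth factor that the labels name. Total RNA of EpH4-PR cells was labelled with Cy5 on each array, and a commercial RNA that the labels call the Stratagene mouse standard was labelled with Cy3, with no dye swap. Arrays of the vector control line EpH4-EV were not analysed here. Each ratio therefore sets EpH4-PR RNA against the reference RNA, whose makeup is not given in the sources used here, and is not an effect of PR. Whether the 3 arrays came from separate cultures is not stated, so that p-values measure only the spread between these arrays.

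The ErbB family are receptor tyrosine kinases of the cell surface. Ligand binding brings receptors together in pairs, and the kinase domains then phosphorylate tails that recruit adaptors to the Ras, PI3-kinase and Stat pathways. Erbb2 has no known direct ligand and acts as a partner, while Erbb3 has a weak kinase and signals through its partners. The ligands are made as membrane proteins that metalloproteases release. In the mammary gland Areg is the ligand through which estrogen drives growth of the ducts, acting on Egfr in the stroma, and Erbb4 with neuregulins takes part in lobuloalveolar differentiation.

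The arrays had a Pearson correlation of log2 ratios between 0.923 and 0.952 across all probes, which are not independent replicates, and their number limits the precision of each ratio. Among epithelial markers, Cdh1 (E-cadherin) was 4.29 ± 0.10 log2 units (SD, n = 3) above the reference and Cldn3 (claudin 3) 3.49 ± 0.13, while Krt19 was 2.62 log2 units below it (mean -2.62 ± 0.18). In Cy3, Cdh1 exceeded the 99th percentile of the negative control spots described below on no array, and Cldn3 on 1. The size of these 2 ratios therefore rests on a reference signal near that of spots without a target. By the rule for calls in the next paragraph, 2.26% of all probes tested were called higher and 3.83% lower. Of 7 luminal probes, 6 were called higher and 1 lower. Of 9 basal probes, 1 was called higher (Krt14, 2.08 ± 0.13) and 1 lower. Of 12 mesenchymal probes, 6 were called lower (Vim, -6.51 ± 0.11, Col3a1, -5.10 ± 0.10, and Col1a1, -5.03 ± 0.12, lowest). Of 8 blood probes, 3 were called lower, Lyz2 at -3.41 ± 0.18 and Ptprc at -4.50 ± 0.13 and -1.40 ± 0.06. The Ptprc probe at -4.50 was well above background in Cy3 on all arrays and in Cy5 on none. A ratio in bulk RNA cannot tell a cell type that is missing from one sample from less RNA per cell, on either side of the ratio. The transfected gene Pgr had 2 probes, at -0.11 ± 0.22 and -0.19 ± 0.08, and each was well above background in Cy5 on only 1 of the 3 arrays. The files hold no probe sequence, so whether these probes could read the transfected construct was not checked.

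At least 1 log2 unit separated EpH4-PR RNA from the reference at 1 probe of Erbb3, which lay above it, and at the probe of Hbegf, which lay below it, and the other ErbB probes stayed within 1 log2 unit of the reference. A probe was called where its log2 ratio was at least 1 either way with an adjusted p under 0.05 (limma, Benjamini-Hochberg over all probes). By this rule 1 of 25 probes was called higher, against 2.26% of all probes tested, and 1 of 25 was called lower, against 3.83%. Without the limit on size, 14 of 25 probes had an adjusted p under 0.05, 9 above the reference and 5 below it, against 50.3% of all probes, so that the share of members past the threshold was near that of the array as a whole. The median log2 ratio of the 25 probes was 0.06, against -0.01 over all probes. The median was 0.04 for the receptor probes and 0.11 for the ligand probes.

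**Figure D1:**
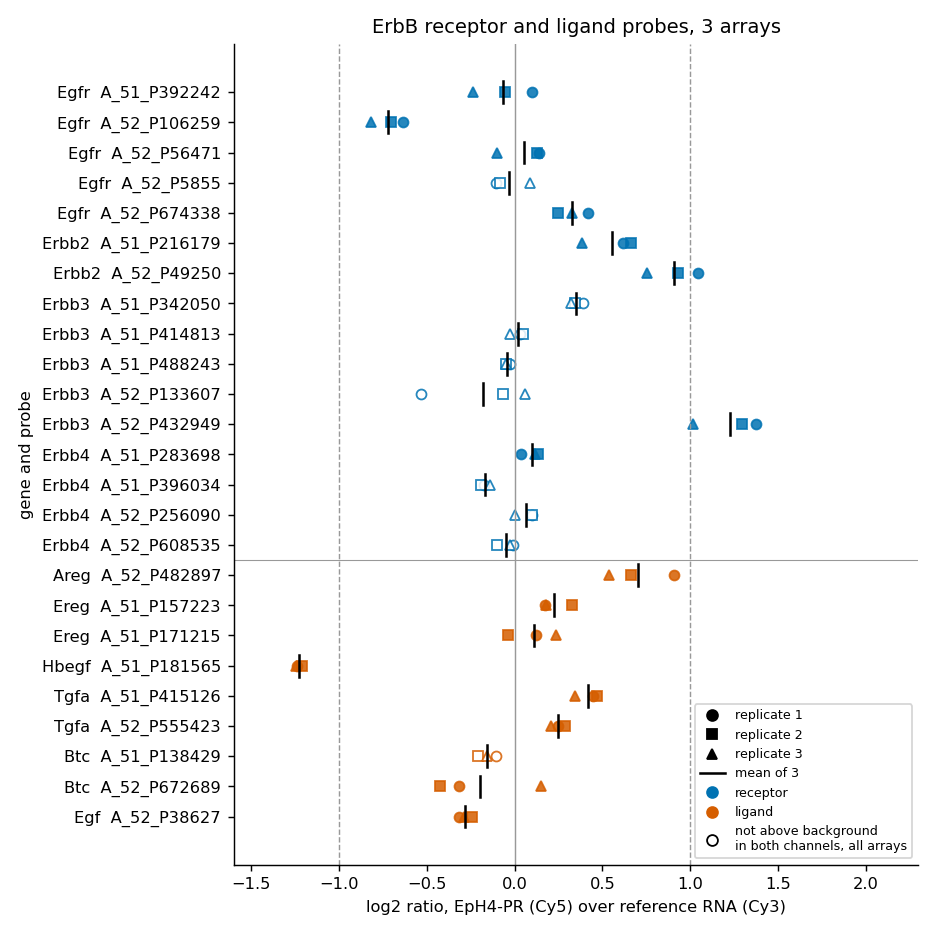
Loess-normalized log2 ratio of EpH4-PR RNA to reference RNA (x axis) for each of the 25 ErbB probes (rows) on the 3 arrays (symbols), with the mean of 3 as a black bar; dashed lines mark 1 log2 unit either way. The probe A_52_P432949 of Erbb3 lies at or above 1.01 on each array and Hbegf lies at or below -1.21, while open symbols mark 9 probes that missed the background flag in a channel of at least 1 array.

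Signal over background set what could be read from these ratios. Of the 25 probes, 16 passed the scanner software's flag for spots well above background in each channel of every array (64%, against 62.5% of all probes). The 314 negative control spots of each array, which carry no mouse gene sequence, gave a stricter limit: their 99th percentile was 94.5, 94.2 and 66.1 in Cy5 and 185, 185 and 124 in Cy3 on replicates 1, 2 and 3. In the EpH4-PR channel 15 of 25 ErbB probes exceeded it on all arrays (60%, against 58.8% of all probes). In the reference channel only 4 did, 1 each of Egfr, Erbb2, Erbb4 and Hbegf (16%, against 28.3%). For the other probes the reference signal was within the range of spots without a target on at least 1 array, and a ratio there is pulled toward 0 by the background correction used.

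**Figure D2:**
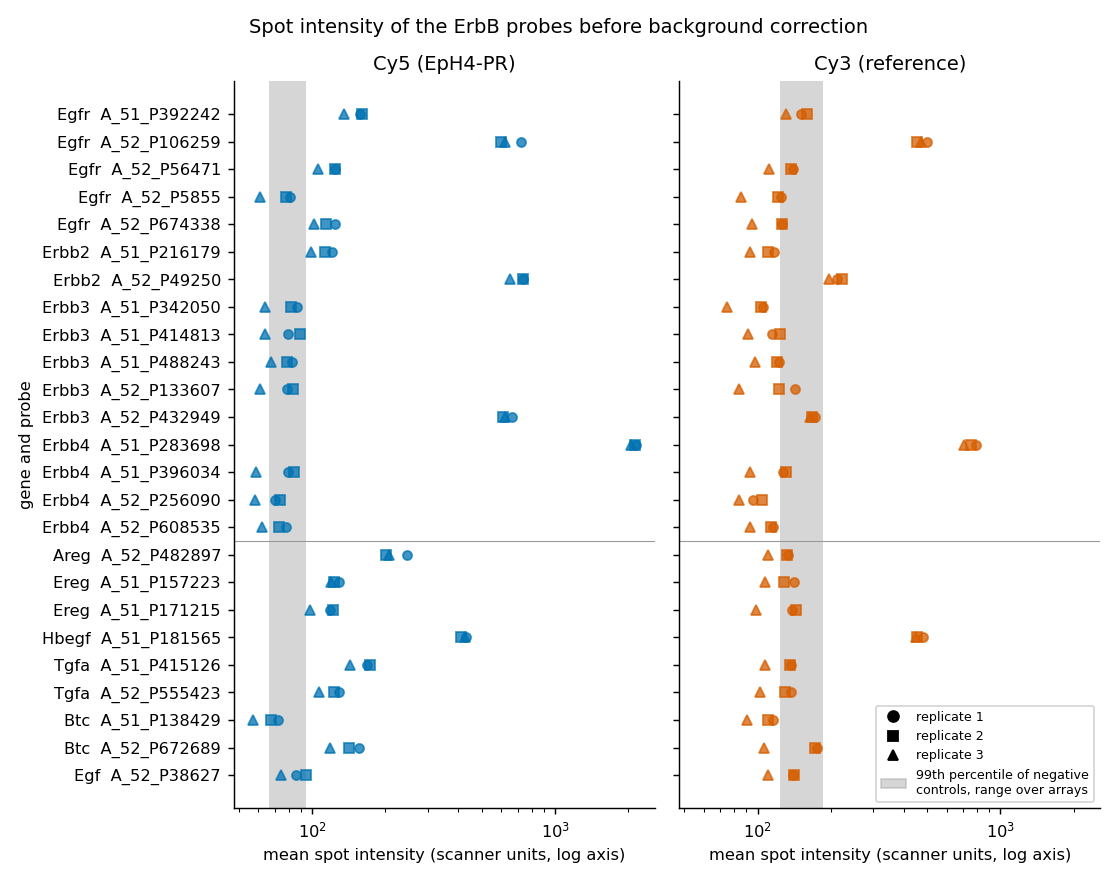
Mean spot intensity before background correction (x axis, scanner units on a log axis) of the 25 ErbB probes (rows) in the EpH4-PR channel (left) and the reference channel (right), 3 arrays each; the grey band spans the 99th percentiles of the negative control spots over the arrays. In Cy5 15 probes exceed that percentile of their own array on all 3 arrays, and in Cy3 only 4 do.

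Egfr, the receptor for Egf, Tgfa, Areg and other ligands of the family, had 5 probes that did not give 1 answer. The probe A_52_P106259, which the files assign to transcript variant 1, had log2 ratios of -0.64, -0.70 and -0.82 on replicates 1, 2 and 3 (mean -0.72 ± 0.09, SD, SE 0.05, adjusted p = 0.000345), so that the reference was 1.65-fold higher. It was below the reference on all arrays and read well over the negative controls in both channels, with Cy5 intensities of 722, 597 and 622 and Cy3 intensities of 498, 452 and 470. A second probe for the same variant, A_52_P674338, had log2 ratios of 0.42, 0.24 and 0.32 (mean 0.33 ± 0.09, adjusted p = 0.0052). These values are on the other side of 0, and the gap between both probes was 1.05 ± 0.10 log2 units within an array, larger than the spread between arrays. With median centring in place of loess, A_52_P106259 turned to 0.40 (adjusted p = 0.000393) and the gap to -0.13, so that the side of the reference on which it lay and the gap both rested on the normalization. The Cy3 intensity of A_52_P674338 stayed within the negative control range on each array, at 126, 126 and 94.7. The probes A_51_P392242 and A_52_P56471, for transcript variant 2, had log2 ratios of 0.10, -0.06 and -0.24 and of 0.14, 0.13 and -0.10, with adjusted p of 0.505 and 0.502. Both straddled 0 between arrays. The fifth, A_52_P5855, for a cDNA clone from whole embryo, was not well above background in Cy5 on any array and was well above it in Cy3 on 1 (mean -0.03 ± 0.11, adjusted p = 0.647), so that it gave no direction.

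Erbb2, the partner receptor, lay above the reference on all arrays at both of its probes, without reaching the limit of 1 log2 unit. A_52_P49250 had log2 ratios of 1.04, 0.93 and 0.75 (mean 0.91 ± 0.15, adjusted p = 0.000346), which is 1.88-fold higher in EpH4-PR RNA, with Cy5 intensities of 739, 736 and 651 and Cy3 intensities of 213, 222 and 197. A_51_P216179 had log2 ratios of 0.62, 0.67 and 0.39 (mean 0.56 ± 0.15, adjusted p = 0.00214), with a Cy3 signal in the negative control range on each array. The first probe exceeded the second by 0.35 ± 0.08 log2 units within an array, and the 2 sets of values did not overlap. With no offset in the background correction, both probes passed the limit (1.09 and 1.57), as they did with the log ratio of the scanner software (1.13 and 1.31), and in both the second probe exceeded the first.

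Erbb3, the receptor for neuregulins with a weak kinase of its own, was called higher at 1 of 5 probes. A_52_P432949 had log2 ratios of 1.37, 1.29 and 1.01 (mean 1.23 ± 0.19, SE 0.08, adjusted p = 0.000231), 2.34-fold higher in EpH4-PR RNA. Its Cy5 intensities were 666, 609 and 619, far over the negative controls, and its Cy3 intensities of 172, 168 and 165 exceeded them on 1 array, so that the reference level is close to that of spots without a target. A second probe of the same cDNA clone, A_51_P342050, was well above background in Cy5 on all arrays and in Cy3 on none. Its log2 ratios were 0.39, 0.35 and 0.32 (adjusted p = 0.002), and the fold bound computed from those flags was 1.22. Its intensities did not exceed the negative controls in either channel on any array, so that this bound does not establish a difference. The remaining probes read no signal clear of the negative controls on all arrays. A_51_P488243, also of this clone, was well above background in Cy5 on no array and in Cy3 on 2 (mean -0.04 ± 0.01, adjusted p = 0.441), and A_51_P414813, for a kinase fragment, was at 0.02 ± 0.04 (adjusted p = 0.746). A_52_P133607, described in the files as part of the extracellular domain, had log2 ratios of -0.54, -0.06 and 0.06 (adjusted p = 0.273), and its mean of -0.18 became -0.00134 without replicate 1. Under the scanner software's log ratio, A_51_P414813 was -0.41.

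Erbb4, a neuregulin receptor with an active kinase, had 1 probe with a strong signal and 3 without. A_51_P283698, described as part of the intracellular domain, had Cy5 intensities of 2151, 2127 and 2052 and Cy3 intensities of 791, 756 and 711, all over the negative controls. Its log2 ratios of 0.04, 0.13 and 0.12 (mean 0.10 ± 0.05, adjusted p = 0.134) put the 2 RNAs within 0.21 log2 units of each other at the upper end of the 95% interval. With median centring the same probe was at 1.41 (adjusted p = 7.98e-08) and was called higher. Of the probes A_51_P396034, A_52_P256090 and A_52_P608535, no intensity exceeded the negative controls in either channel on any array. Their mean log2 ratios were -0.17 ± 0.02, 0.07 ± 0.06 and -0.05 ± 0.05, with adjusted p of 0.024, 0.277 and 0.423. A_51_P396034 and A_52_P608535 were well above background in the reference channel on 2 and 1 arrays and never in Cy5, and A_52_P256090 was above background in neither channel. The adjusted p of A_51_P396034 rose to 0.113 without replicate 1 and to 0.144 without replicate 2. The strong signal at 1 probe and its absence at the others cannot be set against each other as levels, since probes differ in how well they bind.

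Areg and Tgfa, ligands of Egfr, lay above the reference on all arrays. Areg had 1 probe, A_52_P482897, with log2 ratios of 0.91, 0.66 and 0.54 (mean 0.70 ± 0.19, adjusted p = 0.00166), 1.63-fold higher in EpH4-PR RNA. Its Cy5 intensities of 246, 201 and 208 exceeded the negative controls on all arrays, and its Cy3 intensities of 133, 132 and 110 did so on none. Areg passed the limit of 1 log2 unit with no offset (1.30), with the scanner software (1.37) and with median centring (1.11). The Tgfa probe A_51_P415126 had log2 ratios of 0.44, 0.47 and 0.34 (mean 0.42 ± 0.07, adjusted p = 0.00162), and the second, A_52_P555423, 0.25, 0.29 and 0.21 (mean 0.25 ± 0.04, adjusted p = 0.00777). Both were 3 of 3 above 0, the first exceeded the second by 0.17 ± 0.03 within an array, and neither had a Cy3 signal over the negative controls. Without replicate 2 the second probe had an adjusted p of 0.0643, and with the scanner software the first reached 1.43.

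Erbb2, Areg and Tgfa were the members with a promoter in the RefSeq table whose probes all lay above the reference with an adjusted p under 0.05, and the 250 bases before the start of each are shown to place simple promoter letters beside these values. The sequences are from RefSeq on GRCm38.p6, on the + strand, for Erbb2 at chr11:98412234-98412483, Areg at chr5:91139349-91139598 and Tgfa at chr6:86194972-86195221. Of the 10 genes, 7 had an entry. Both strands were searched for TGTTCT (the half-site that the progesterone receptor can bind), GGGCGG (the GC box), TATAAA (the TATA box) and TGACTCA (the AP-1 site), and capitals mark the matches.
Erbb2: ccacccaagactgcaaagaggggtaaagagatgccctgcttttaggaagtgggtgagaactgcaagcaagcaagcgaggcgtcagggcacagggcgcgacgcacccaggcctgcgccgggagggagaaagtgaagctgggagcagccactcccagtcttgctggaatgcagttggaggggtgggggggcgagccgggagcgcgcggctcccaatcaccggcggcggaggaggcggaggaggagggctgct
Areg: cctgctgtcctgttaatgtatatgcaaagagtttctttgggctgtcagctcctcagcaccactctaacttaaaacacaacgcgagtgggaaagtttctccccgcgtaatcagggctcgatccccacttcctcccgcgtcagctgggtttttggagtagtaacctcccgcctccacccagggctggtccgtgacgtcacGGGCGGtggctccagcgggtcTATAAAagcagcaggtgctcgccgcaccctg
Tgfa: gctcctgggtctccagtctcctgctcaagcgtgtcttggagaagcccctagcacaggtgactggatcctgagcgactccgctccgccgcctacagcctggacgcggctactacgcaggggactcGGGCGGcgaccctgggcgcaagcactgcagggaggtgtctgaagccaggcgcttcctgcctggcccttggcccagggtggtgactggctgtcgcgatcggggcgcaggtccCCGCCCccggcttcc
The promoter of Areg held a GC box 52 to 47 bases before the start and a TATA box 31 to 26 bases before it. Tgfa held GC boxes 126 to 121 and, on the other strand, 15 to 10 bases before its start, and Erbb2 held none of these letters. Among the other members with an entry, Egfr held 1 GC box and Erbb4, Btc and Egf held no match. Of all 32851 promoters of this length, 32.7% held a GC box, 12.4% a TATA box, 16.1% the half-site and 4.46% the AP-1 letters. No arrays here measured binding, so a match is a description of the letters.

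Hbegf, a ligand of Egfr and Erbb4, was the member furthest below the reference. Its probe A_51_P181565 had log2 ratios of -1.24, -1.21 and -1.24 (mean -1.23 ± 0.02, SE 0.04, adjusted p = 3.74e-05), so that the reference was 2.35-fold higher. The 3 arrays agreed within 0.02 log2 units (SD), and both channels exceeded the negative controls on all arrays, with Cy5 intensities of 428, 408 and 424 and Cy3 intensities of 479, 454 and 447. The spot intensities of both channels were close, while loess sets each spot against others of its brightness on the same array. With median centring, which makes no such adjustment, Hbegf was at -0.18 and was not called, while the 3509 probes within 0.5 of its mean log2 intensity had a median of 1.07.

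Ereg, Btc and Egf stayed within 0.5 log2 units of the reference, with ratios that grew when no offset was used. The Ereg probes A_51_P157223 and A_51_P171215 had log2 ratios of 0.17, 0.33 and 0.18 (mean 0.22 ± 0.09, adjusted p = 0.0193) and of 0.12, -0.04 and 0.24 (mean 0.11 ± 0.14, adjusted p = 0.219), and the values of both probes overlapped. With no offset the first was at 0.50. Without replicate 1 or replicate 2 it had an adjusted p of 0.0541 or 0.115. Betacellulin, Btc, binds Egfr and Erbb4. Its probe A_52_P672689 was split between arrays, at -0.32, -0.42 and 0.15 (adjusted p = 0.224), and without replicate 3 its mean was -0.37 with an adjusted p of 0.00575. The other Btc probe, A_51_P138429, was well above background in neither channel on any array (-0.16 ± 0.05, adjusted p = 0.0364), and without replicates 1, 2 and 3 in turn its adjusted p was 0.0893, 0.203 and 0.0637. With no offset that probe was at -1.03 (adjusted p = 0.0569). Egf had log2 ratios of -0.32, -0.24 and -0.29 at A_52_P38627 (mean -0.28 ± 0.04, adjusted p = 0.00478). Its 3 values were below 0, but its Cy5 intensities of 85.4, 93.9 and 74.6 exceeded the negative controls on 1 array and its Cy3 intensities on none. With no offset Egf was at -0.73, and with the scanner software at -0.79.

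In the GRCm38.p6 gene table Epgn, Ereg, Areg and Btc follow each other on chromosome 5 with 0 protein-coding genes between neighbours. These neighbours spanned mean log2 ratios from 0.70 at Areg to -0.20 at Btc A_52_P672689, with Epgn (epigen, a further Egfr ligand) at 0.21 ± 0.39 and its arrays at -0.17, 0.62 and 0.17. Only Areg and 1 Ereg probe among them were above the reference on all arrays with an adjusted p under 0.05.

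Ordered by mean log2 ratio, the 16 probes above background in both channels ran from Erbb3 A_52_P432949 (1.23) through Erbb2 A_52_P49250 (0.91), Areg (0.70), Erbb2 A_51_P216179 (0.56) and Tgfa A_51_P415126 (0.42) down to Egf (-0.28), Egfr A_52_P106259 (-0.72) and Hbegf (-1.23). Compared over all arrays, the ranges of neighbours in this order overlapped except at the lower end. Within an array, however, Erbb3 A_52_P432949 exceeded Erbb2 A_52_P49250 by 0.32 ± 0.05 and that probe exceeded Areg by 0.21 ± 0.07, on 3 of 3 arrays each. At the lower end the gap from Egf to Egfr A_52_P106259 was 0.44 ± 0.11 and that from Egfr A_52_P106259 to Hbegf 0.51 ± 0.09, with no overlap. The order describes ratios to the reference RNA and not levels of the genes among themselves.

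The way the ratio was made changed which ErbB probes were called. With no offset, both Erbb2 probes, Areg and a second Erbb3 probe (A_51_P342050, 2.29) were called higher beside A_52_P432949, but A_51_P342050 was at 2.14 with an adjusted p of 0.124 with the scanner software. Median centring in place of loess gave 4 member calls higher and 0 lower, at Erbb3 A_52_P432949 (2.12), Erbb2 A_52_P49250 (1.89), Erbb4 A_51_P283698 (1.41) and Areg (1.11), and turned Egfr A_52_P106259 to 0.40. It raised probes of high intensity as a whole: so centred, the probes within 0.5 of these members' mean log2 intensity had medians of 0.92 around the Erbb3 probe, 1.00 around the Erbb2 probe, 1.36 around the Erbb4 probe and 1.15 around the Egfr probe. These medians are what loess takes out, so they do not decide between both ways of normalizing. Over all probes, the share of higher among called probes went from 37.1% to 90.9% with median centring, 48.2% with the scanner software and 44.5% with no offset. Calls higher over all 41171 probes tested numbered 932, and 7031, 3616 and 3125 under these settings in that order, so the member counts rose along with those of the array. The gap between the Egfr probes A_52_P674338 and A_52_P106259 went from 1.05 to -0.13 with median centring and was 1.63 with no offset.

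**Figure D3:**
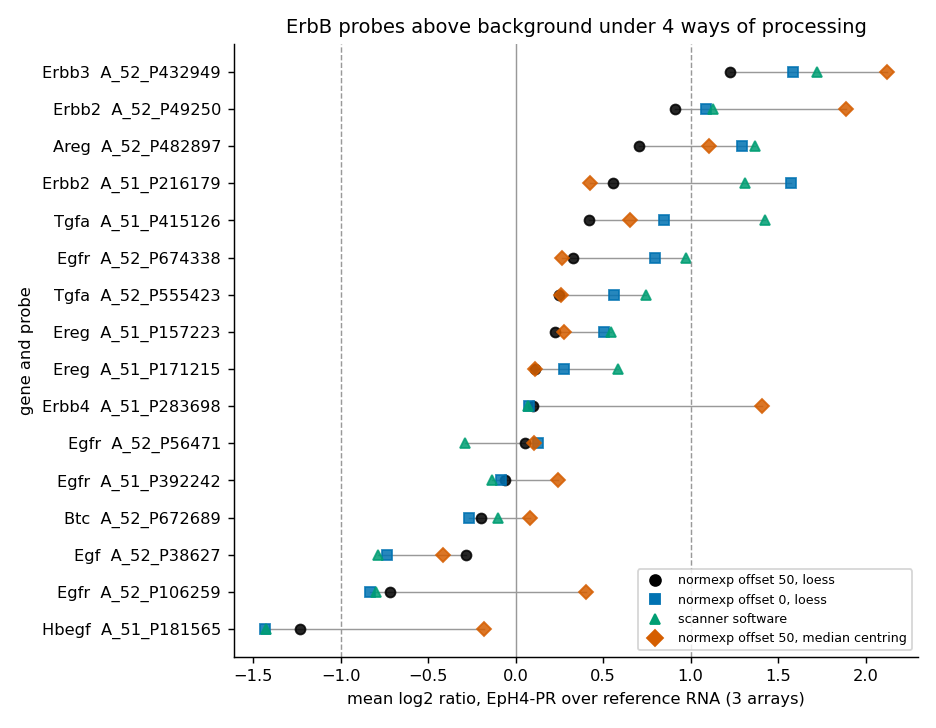
Mean log2 ratio over the 3 arrays (x axis) of the 16 ErbB probes above background in both channels (rows, in the order of the main ratio) under 4 ways of making it; dashed lines mark 1 log2 unit. Hbegf moves from -1.23 to -0.18, Egfr A_52_P106259 from -0.72 to 0.40 and Erbb4 A_51_P283698 from 0.10 to 1.41 with median centring, while the Erbb3 probe stays above 1 under all 4.

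Of the other ligands, Nrg1 (neuregulin 1, a ligand of Erbb3 and Erbb4) lay above the reference at 4 of 5 probes. A_52_P369769, described as neuregulin 1-beta 1, had log2 ratios of 1.28, 1.33 and 1.21 (mean 1.27 ± 0.06, adjusted p = 4.64e-05), and A_52_P369761 1.26, 1.23 and 0.94 (mean 1.14 ± 0.18, adjusted p = 0.000257). Both were called higher, and A_52_P52635 and A_52_P328064 of Nrg1 were at 0.75 ± 0.14 and 0.23 ± 0.08. The Cy3 intensity exceeded the negative controls on 1 array at each called probe, and on none at A_52_P52635 and A_52_P328064. Of the 9 probes of neuregulins and Epgn, 0 exceeded them in Cy3 on all arrays, against 28.3% of all probes. The fifth, A_52_P158772, was at -0.24 and -0.18 on replicates 2 and 3, with its spot on replicate 1 left out as an outlier (adjusted p = 0.0448), and stood at 0.03 with that spot kept. Nrg4, a ligand of Erbb4, was at 0.18 ± 0.12 (adjusted p = 0.0619). The Nrg3 probes were at -0.09 ± 0.13 and -0.10 ± 0.10 and were not well above background in Cy5 on any array. Nrg2 had no probe under its symbol, and the probe that the files describe as neuregulin 2-alpha, chosen after its values were seen, was at -0.09 ± 0.15 (adjusted p = 0.335).

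Of the 16 probes of genes that release or transport the ligands, 3 were called higher and 1 lower, against 2.26% and 3.83% of all probes. Their median log2 ratio was 0.17, and 13 had an adjusted p under 0.05, against 50.3% of all probes. Rhbdf2 and Rhbdf1, the inactive rhomboids that carry the main sheddase Adam17 to the surface, were at 1.37 ± 0.07 and 1.15 ± 0.04 (adjusted p = 4.4e-05 and 5.13e-05), and a second Rhbdf2 probe was at 0.95 ± 0.14 and was not called. The 2 probes of Adam17 were at 0.70 ± 0.19 and 0.70 ± 0.22. The Cy3 signal exceeded the negative controls on 1 array at the Rhbdf1 probe. It did so on 2 and 1 arrays at the first and second Rhbdf2 probes, and on 2 and 1 at those of Adam17. The metalloprotease genes Adam19 and Adam15 had probes that disagreed. A_52_P396459 of Adam19 was called higher at 1.28 ± 0.27, beside probes of that gene at -0.77 ± 0.10 and -0.25 ± 0.06. A_51_P291815 of Adam15 was called lower at -1.30 ± 0.03, beside one at -0.13 ± 0.17, and was at -0.24 with median centring.

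The inhibitors and turnover genes gave 0 of 19 probes called higher and 3 called lower by limma, against 2.26% and 3.83% of all probes. At an adjusted p under 0.05, 4 were above 0 and 7 below 0, 11 of 19 against 50.3% of all probes. Errfi1 (Mig6, an inhibitor that binds the kinase domain of Egfr) had log2 ratios of -1.67, -1.64 and -1.65 (adjusted p = 2.24e-05), so that the reference was 3.15-fold higher. Ubash3b, a phosphatase that acts on Egfr and its adaptors, was at -1.52 ± 0.10. Lrig3, of the Lrig family of ErbB regulators, was at -1.06 ± 0.08. These 3 were below the reference on all arrays and over the negative controls in Cy3. In Cy5, the Ubash3b intensities of 95.4, 94.7 and 72.8 were close to the 99th percentile of the negative controls, at 94.5, 94.2 and 66.1. With median centring Errfi1 was at -0.38 and Lrig3 at -0.10 (adjusted p = 0.0957), so that neither was called, while Ubash3b was at -1.28. Lrig1, which promotes ErbB degradation, was above the reference at 0.42 ± 0.04 without reaching the limit.

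None of the 15 probes of receptor partners (Erbin, Muc1, Muc4 and Cd9) was called, with 7 at an adjusted p under 0.05, against 50.3% of all probes. Of 58 probes of adaptors and effectors, 5 were called higher and 4 lower, against 2.26% and 3.83% of all probes. An adjusted p under 0.05 was reached by 40, 25 above the reference and 15 below it, against 50.3% of all probes. Ptpn11 (the phosphatase Shp2, which couples receptors to Ras) was called at 1 of its 3 probes, at 1.97 ± 0.12, beside 0.66 ± 0.04 and 0.64 ± 0.03 at the others, and Hras was at 1.44 ± 0.05. Probes of 1 gene were called in opposite directions for Pik3r1, a regulatory subunit of PI3-kinase, at 1.04 ± 0.03 and at -3.35 ± 0.08, beside probes at -1.14 ± 0.19 (called) and 0.96 ± 0.09. Over the 5 lists, 117 probes of 57 of 58 genes gave 10 calls higher and 8 lower, beside the shares of 2.26% and 3.83% over all probes, and a median of 0.07. No list was tested as a set.

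**Figure D4:**
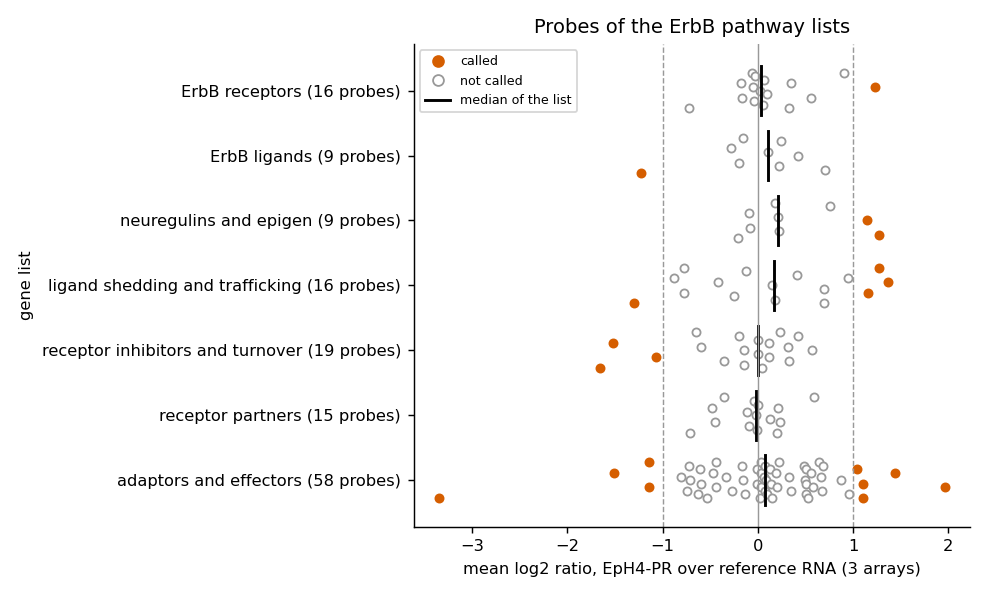
Mean log2 ratio over the 3 arrays (x axis) of each probe in the ErbB receptors, the ErbB ligands and 5 lists of pathway genes (rows, with vertical jitter for clarity only); filled points were called, and the black bar is the median of a list. The list medians lie between -0.02 and 0.21, and the called probes lie on both sides of 0 in the shedding and the adaptor lists.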

How the data were processed

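EpH4-PR RNA was hybridised to 3 two-colour Agilent arrays, all scanned on 1 day, taken as replicates 1 to 3 as their labels number them. The authors deposited the output of Agilent Feature Extraction 8.1.1.1 for each array, with a spot intensity and a local background intensity in both channels (43790 spots) and the log10 of the Cy5 to Cy3 ratio. A deposited table of the authors' own fold changes and p-values between 2 unnamed sides was not used.

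Mean spot intensities were corrected for local background by normexp with an offset of 50, and each array was then loess-normalized, in R 4.3.3 with limma 3.58.1. Control spots and spots marked as outliers (150, 18 and 3 on the 3 arrays) were left out and spots of a probe averaged. Log2 ratios of 41171 probes with a value on at least 2 arrays were tested against 0 by lmFit and eBayes with Benjamini-Hochberg adjustment. The median Cy5 intensity was 112, 113 and 93.8; the number of arrays limits the precision. Dye and sample cannot be told apart without a dye swap. Fold bounds for a channel never above background used per-channel values after loess and Aquantile, and are open to dye bias.

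Probes of a gene were kept apart. All members are named, and of each other list up to 3 genes with the highest and up to 3 with the lowest called ratio above background in both channels, plus all neuregulins, Epgn and Pgr, except 1 gene that is not reported here; Adam17, Lrig1 and further probes of genes so named were added after their values were seen. The members and lists were chosen with earlier results of these data known. Promoters and gene order came from RefSeq tables of GRCm38.p6,. The test was checked on simulated ratios with independent normal noise for each probe and array. These held no dye or intensity effect shared between probes, so that the check does not cover the normalization. The 12 alternatives covered background offset, the scanner software's log ratio, median centring, outlier spots, the median spot intensity, a filter on dim probes, an intensity trend, each array left out and the methods' t-test.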

Additional observations from a re-analysis of the deposited data

How the results depend on the processing

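No paired analysis was possible because the arrays hold 1 group. Of 293 values of the 25 member probes under the 12 alternatives, 253 kept their direction and their side of an adjusted p of 0.05, 19 lost significance, 8 gained it and 13 changed direction. Member probes called higher numbered 1, and 5 with offset 0, 5 with the ratio of the scanner software and 4 with median centring; those called lower numbered 1, and 0 with median centring. Pathway probes called higher numbered 10, and 18 with offset 0, 24 with the scanner software and 30 with median centring; those called lower numbered 8, and 2 with median centring. Over all 41171 probes tested, 932 were called higher, and 3125 with offset 0, 3616 with the scanner software and 7031 with median centring. Calls lower over all probes numbered 1578, and 3905, 3887 and 708 under these settings in the same order. The 10 pathway probes called higher stayed above 0 under all 12 alternatives, and the 8 called lower stayed below 0 except for 1 with median centring. With median centring the direction turned for Egfr A_51_P392242 (0.24), Egfr A_52_P106259 (0.40), Erbb3 A_51_P414813 (-0.22), Erbb4 A_52_P256090 (-0.12), Btc A_52_P672689 (0.082) and Nrg1 A_52_P158772 (0.30). With the scanner software it turned for Egfr A_52_P56471 (-0.29), Egfr A_52_P5855 (0.13), Erbb3 A_51_P414813 (-0.41), Erbb4 A_52_P256090 (-0.088) and Nrg3 A_51_P177071 (0.31). It also turned for Egfr A_52_P5855 with offset 0 (0.018), Erbb3 A_52_P133607 with the median spot intensity (0.021) and Nrg1 A_52_P158772 with outlier spots kept (0.032). With 1 array left out in turn, Egfr A_51_P392242 ranged from -0.15 to 0.023, Egfr A_52_P5855 from -0.095 to 0.0027 and Pgr A_51_P213476 from -0.18 to 0.019. Without each array the same 2 member probes were called, of Erbb3 and Hbegf. The methods' t-test called 1 higher and 1 lower, both unadjusted at 0.05 and after Benjamini-Hochberg. A Cy3 signal within the negative control range on at least 1 array limits the ratio of all but 4 of the 25 probes, and the cause of each change was not tested.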
